A study of Mus musculus with 2 samples.

Results

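The genes described here are 38 that serve MHC class I antigen display or encode the interferon-gamma-inducible GTPases of the mouse, out of 32285 genes counted in the series. They were taken by symbol from a list, and all 38 were among the counted genes. The GTPases are 9 guanylate-binding proteins (GBPs: Gbp2, Gbp2b, Gbp3, Gbp4, Gbp5, Gbp6, Gbp7, Gbp8 and Gbp9) and 7 immunity-related GTPases (IRGs: Irgm1, Irgm2, Igtp, Iigp1, Ifi47, Tgtp1 and Tgtp2). The class I genes are 22. They are the class Ia heavy chains H2-K1 and H2-D1 with B2m, the class Ib heavy chains H2-T22, H2-T23, H2-Q4, H2-Q6, H2-Q7 and H2-M3, the peptide handling genes Tap1, Tap2, Tapbp, Tapbpl and Erap1, the immunoproteasome genes Psmb8, Psmb9, Psmb10, Psme1 and Psme2, the transactivator gene Nlrc5, and the chaperone genes Calr and Pdia3.

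The genes were read in leukocytes sorted on CD45, a surface protein of leukocytes, from subcutaneous tumours grown from B16F10-OVA cells, a mouse melanoma line that carries the model antigen ovalbumin. All mice carried this graft, and 1 group received PBS, a saline buffer, and the other UDSP-Hep, an agent that the labels name and do not describe, on days 10, 12, 14 and 16. Tumours were taken on day 19, and 3 per group were pooled into 1 droplet-based single-cell RNA library (10x Genomics), so each group is 1 library with no replicate. Strain, sex and age are not given in the sources used here. Cells cannot be assigned to single tumours from the files used here. Each counted molecule is a unique molecular identifier (UMI). A level is given in CPM, a gene's UMIs scaled by all UMIs of its cell class and library to the usual fixed total, and brackets hold its exact Poisson 95% interval. A ratio is UDSP-Hep over PBS, with an exact conditional binomial 95% interval, and a ratio in brackets is followed by the bounds of that interval. These intervals cover counting error only, and no difference between the libraries has a replicate check or a test.

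MHC class I molecules carry short peptides from the inside of a cell to its surface, where CD8 T cells read them and NK cells sense their presence. Proteasomes cut the peptides, the TAP transporter moves them into the endoplasmic reticulum, ERAP1 trims them, and a loading complex of tapasin, calreticulin and the PDIA3 disulphide isomerase fits them to a heavy chain bound to beta-2 microglobulin. Interferon gamma, made in tumours mainly by T and NK cells, acts through the kinases JAK1 and JAK2 and reaches its target promoters at GAS elements and, through interferon regulatory factors, at ISRE elements. It induces much of this machinery and also the GBPs and IRGs, large and small GTPases that gather on the vacuoles of intracellular pathogens.

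The promoters of 30 of the 38 genes could be matched by symbol to RefSeq (assembly GRCm38.p6). The 250 bases before each start were searched on both strands for TTCNNNGAA, the core of a GAS element, and for the core of an ISRE, which is GAAA, any 2 bases and GAAA again. A GAS match lay upstream of 8 of the 30 genes, against 8.13% of 27025 genes of the table. These were Gbp5, Gbp7, Irgm2, Igtp, Tgtp1, Tgtp2, the heavy chain gene H2-M3 and the immunoproteasome gene Psmb8. An ISRE match lay upstream of 13 of the 30, against 3.463% of all genes. The share with an ISRE match differed by role. A match was found in 5 of the 5 matched GBPs, 5 of the 6 matched IRGs, and B2m, H2-T22 and H2-T23 among the 9 heavy chain and B2m genes. It was found in 0 of the 5 immunoproteasome genes, 0 of the 3 transport genes and 0 of the 2 chaperone genes. Only exact letters counted. H2-K1, H2-D1, H2-Q4, H2-Q6, H2-Q7 and H2-M3 hold TTTCACTTCT upstream, which is close to the ISRE core and was not counted. A gene without a match may therefore still hold a related element. The pentamer CCAAT, part of the classical class I promoter, was found in 9 of the 9 heavy chain and B2m genes, against 37.5% of all genes.

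The following stretches show how closely related the upstream regions of 4 IRGs are, with GAS and ISRE matches in capitals and 15 bases on either side. In Igtp, Irgm2, Tgtp1 and Tgtp2 the matches start 11 bases apart, an arrangement found upstream of 5 of the 27025 genes (0.0185%). This offset was chosen after the matches were seen, and the 4 genes are relatives whose upstream sequence is shared. Other stretches are shown for Gbp5, which counted as higher in most classes, for Gbp7 with its pair of GAS matches, and for the class I genes B2m and H2-T22. For Gbp5 only the ISRE match is shown. Gbp5 also has GAS matches, which begin 245 and 52 bases before its start and are not shown.
Igtp: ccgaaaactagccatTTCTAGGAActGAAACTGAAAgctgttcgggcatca
Irgm2: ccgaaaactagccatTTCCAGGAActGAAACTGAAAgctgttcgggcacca
Tgtp1: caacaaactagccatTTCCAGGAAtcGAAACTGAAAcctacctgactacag
Tgtp2: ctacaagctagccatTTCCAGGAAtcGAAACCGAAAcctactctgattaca
Gbp5: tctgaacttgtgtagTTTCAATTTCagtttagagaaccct
Gbp7: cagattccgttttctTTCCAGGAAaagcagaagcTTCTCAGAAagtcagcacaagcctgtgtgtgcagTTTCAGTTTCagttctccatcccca
B2m: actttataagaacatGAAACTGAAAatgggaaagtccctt
H2-T22: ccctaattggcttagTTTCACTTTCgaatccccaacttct

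The stretches lie, on GRCm38.p6, at chr11:58199496-58199546 (plus strand, Igtp), chr11:58214887-58214937 (plus, Irgm2), chr11:48992299-48992349 (minus, Tgtp1), chr11:49064258-49064308 (minus, Tgtp2), chr3:142496754-142496793 (plus, Gbp5), chr3:142530215-142530307 (plus, Gbp7), chr2:122147533-122147572 (plus, B2m) and chr17:36042909-36042948 (minus, H2-T22). None overlaps an exon in GENCODE M21. Those of Igtp, Gbp7 and H2-T22 lie outside annotated genes. Those of Irgm2, Tgtp1 and Gbp5 lie within the annotated spans of the same genes, those of Tgtp1 and Tgtp2 within the span of Olfr56, and that of B2m within the span of Patl2, all intronic. Some stretches that are not shown do overlap an exon of their own gene. They surround matches of Gbp2, Irgm1, Psmb8 and H2-T23 and the GAS match of Gbp5 nearer its start. Matches are descriptions of letters and were not tied to binding in these cells. In the annotation Irgm2 (ENSMUSG00000069874, chromosome 11, 58199618 to 58222782) overlaps Igtp (ENSMUSG00000078853, 58199556 to 58207591) on the plus strand, and Gbp8, Gbp9 and Gbp4 overlap one another on the minus strand of chromosome 5. Counts between these genes, and between the near-identical pairs Tgtp1 and Tgtp2, H2-Q6 and H2-Q7, and Gbp6 and Gbp10, are therefore uncertain.

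The PBS library held 7379 barcodes and the UDSP-Hep library 7872, with medians of 7890 and 5641 UMIs, and 25 barcode sequences were shared. After filtering, 4603 of 7134 and 5042 of 7675 cells passed a marker gate for 1 of 15 leukocyte classes. The classes are ranges cut from marker counts and not clusters, and each name stands for cells like those whose markers they carry (macrophage-like and so on), with the suffix left out from here on. Cells that carried markers of 2 lineages (477 and 788) were left out as possible doublets, and 632 and 422 phagocytes or dendritic cells lay too close between 2 classes to be placed. No member gene was used in the gate. Macrophage markers stood at 9318 and 9493 CPM in macrophages and T cell markers at 4454 and 4177 CPM in CD8 T cells. In CD4 T cells, a class not used for ratios, the Treg markers, at 711 and 1165 CPM, stood above the CD4 T markers, at 532 and 633 CPM, and in B cells of the PBS library the plasma cell markers stood above the B cell markers. Melanoma markers summed to at most 17.4 CPM in any class. Ratios were read in the 7 classes that had 100 or more cells in both libraries: classical monocytes (1683 and 994 cells), nonclassical monocytes (108 and 296), macrophages (767 and 451), cDC2 (182 and 129), NK cells (420 and 1398), CD8 T cells (552 and 463) and Treg (192 and 276). Levels alone are given for classes with at least 25 cells. Hspa1a and Hspa1b, inducible heat-shock genes, had lower summed levels after UDSP-Hep in each of the 7 classes, for example 2614 and 215 CPM summed in classical monocytes and 501 and 126 CPM in CD8 T cells. Pairs of values are PBS first.

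**Figure D1:**
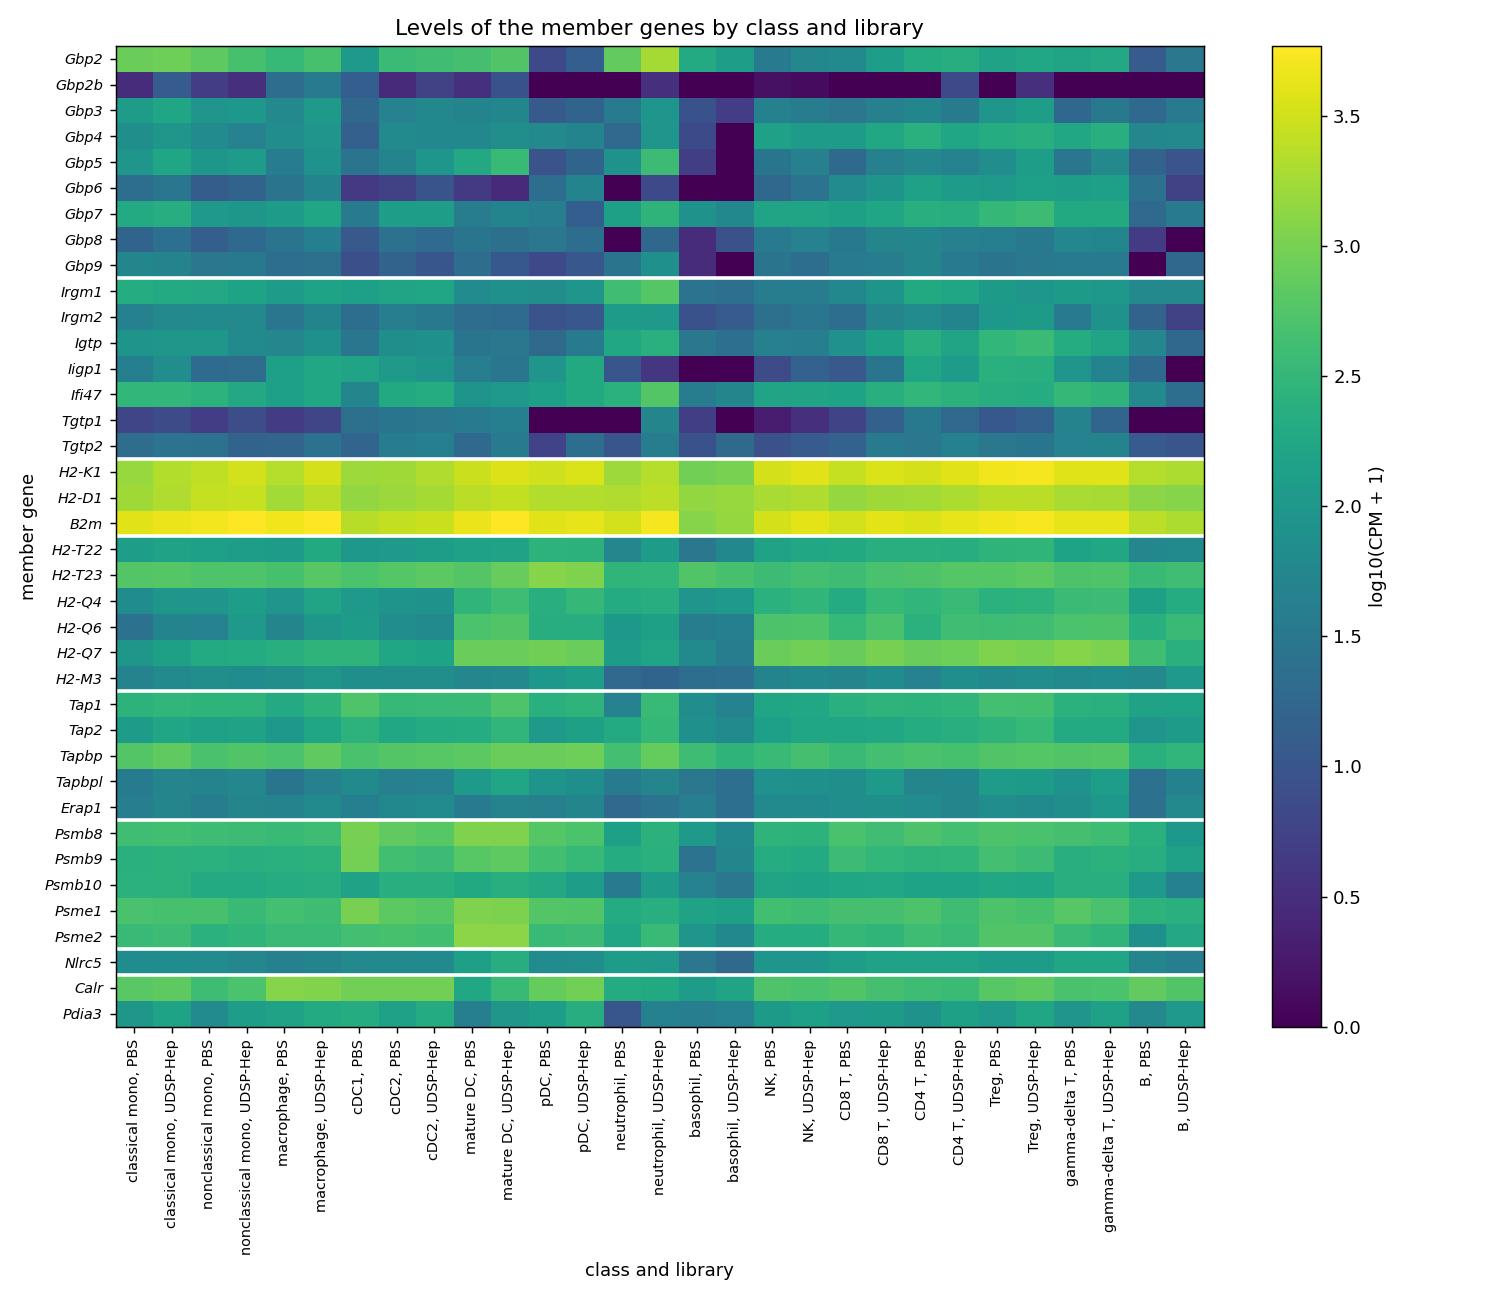
Levels of the 38 genes as log10(CPM + 1) in each class with at least 25 cells, by library, with white lines between roles. The rows of Gbp2, Gbp6, Iigp1 and H2-Q6 change strongly from class to class, while H2-K1, H2-D1 and B2m are bright in every column.

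The first question was in which leukocytes each gene was found. Treg held the highest level of 18 of the 38 genes with PBS and of 13 with UDSP-Hep, of the 7 compared classes. Classical monocytes followed with 7 in each library. The class with the highest level was the same in both libraries for 29 of the 38 genes, and the class with the lowest for 27. NK cells held the lowest level of Gbp2, Irgm1, Igtp, Iigp1, Tap1, Psmb8 and Psme2, among others, in both libraries.

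Among the GBPs, Gbp2, a vacuole-targeting GTPase, was highest in neutrophils and classical monocytes. In classical monocytes Gbp2 stood at 821 CPM (808 to 835) with PBS and 855 CPM (836 to 873) with UDSP-Hep. NK cells had 35.0 CPM (27.4 to 44.0) and 55.4 CPM (49.8 to 61.3), so the highest compared class lay 23.5 and 15.4 times above the lowest. Between them came nonclassical monocytes (671 and 464 CPM), cDC2 (365 and 411 CPM), macrophages (333 and 467 CPM), Treg (145 and 184 CPM) and CD8 T cells (60.4 and 126 CPM). Neutrophils reached 735 and 1796 CPM, and pDC, the plasmacytoid dendritic cells, 5.87 and 12.5 CPM. Gbp6 went the other way, from 108 CPM (92.3 to 126) and 134 CPM (118 to 150.2) in Treg down to 4.62 CPM (2.46 to 7.90) and 8.49 CPM (4.75 to 14.0) in cDC2. Of the compared classes Gbp4 was also highest in Treg, at 216 and 232 CPM, with 143 and 120.0 CPM in NK cells and 74.6 and 97.8 CPM in classical monocytes.

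Gbp2b was highest in macrophages. It stood at 21.1 CPM (18.4 to 24.1) and 34.4 CPM (29.9 to 39.3) in macrophages and at 2.01 CPM (1.38 to 2.82) and 11.46 CPM (9.42 to 13.8) in classical monocytes. CD8 T cells held 0 UMIs of Gbp2b in both libraries, which allows up to 0.491 and 0.963 CPM. Gbp7 ran from 107 and 99.03 CPM in nonclassical monocytes to 318 and 376 CPM in Treg.

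The GBPs of chromosome 3 are Gbp2, Gbp2b, Gbp3, Gbp5 and Gbp7, and those of chromosome 5 are Gbp4, Gbp6, Gbp8 and Gbp9. These 2 sets form separate clusters in the mouse genome, and the quotient of their summed UMIs differed between compared lymphoid and myeloid classes. Summed UMIs of the chromosome 3 genes over those of chromosome 5 gave 7.46 (7.17 to 7.77) and 7.11 (6.78 to 7.46) in classical monocytes. Nonclassical monocytes had 8.09 (6.50 to 10.2) and 7.07 (6.16 to 8.14). Macrophages had 3.95 (3.73 to 4.18) and 4.19 (3.94 to 4.46). Treg had 1.59 (1.44 to 1.77) and 1.90 (1.75 to 2.06), NK cells 1.19 (1.05 to 1.35) and 1.36 (1.27 to 1.46) and CD8 T cells 0.996 (0.927 to 1.07) and 1.07 (0.983 to 1.16). The intervals of the lymphoid classes lay below those of all compared myeloid classes in both libraries. Neutrophils had the quotient 21.8 (9.06 to 68.5) and 13.4 (11.8 to 15.2), and pDC had 0.556 (0.392 to 0.780) and 0.429 (0.232 to 0.761), with intervals below 1 in both libraries. The quotient compares classes and not the amounts of the 2 groups of transcripts, since genes differ in how well their ends are captured. Gbp2 weighed heavily in it. In classical monocytes Gbp2 held 13480 of 20129 and 8203 of 13500 chromosome 3 UMIs, and in NK cells 73 of 552 and 365 of 1933. The quotient was not read without Gbp2. Single genes did not all follow their cluster. Of the compared classes Gbp7 was highest in Treg and Gbp9 in classical monocytes, in both libraries.

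**Figure D2:**
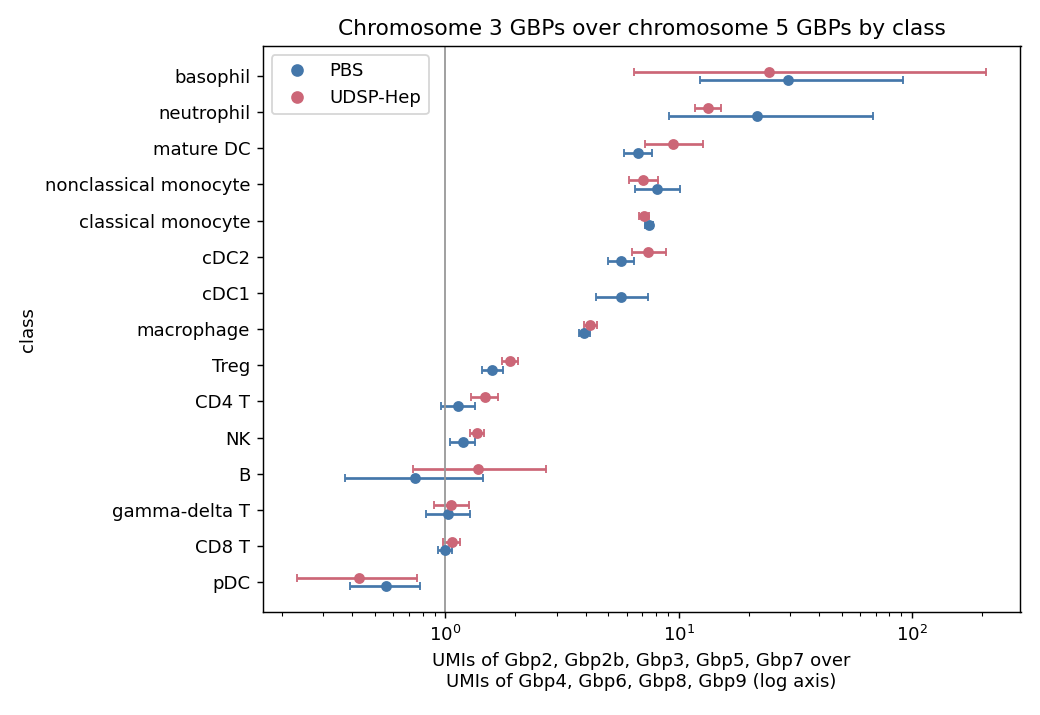
UMIs of the 5 GBP genes of chromosome 3 over UMIs of the 4 of chromosome 5, by class and library, on a log axis, with exact 95% counting intervals. NK, CD8 T and Treg lie below macrophages, cDC2 and monocytes in both libraries, and pDC lie below 1.

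The IRGs fall into regulators that guard host membranes (Irgm1, Irgm2 and Igtp, also called IRGM proteins) and effectors that attack vacuoles (Iigp1, Ifi47, Tgtp1 and Tgtp2). Regulators summed to 520.2 and 575 CPM in Treg, 344 and 357 CPM in classical monocytes and 103 and 107 CPM in NK cells. Igtp was highest in Treg, at 310.2 CPM (283 to 339.7) and 369.9 CPM (344 to 397), whereas Irgm1 was highest, of the compared classes, in classical monocytes, at 213 CPM (206 to 220.1) and 202 CPM (193 to 212). Neutrophils had more Irgm1 still, at 408 and 596 CPM. Iigp1, an effector that disrupts vacuole membranes, differed between classes more than any other IRG in both libraries. It stood at 242 CPM (218 to 269) and 229.7 CPM (209.6 to 251) in Treg, at 134 and 179 CPM in macrophages and at 6.23 CPM (3.32 to 10.6) and 14.3 CPM (11.52 to 17.4) in NK cells, 38.9 and 16.1 times apart. Nonclassical monocytes had 19.5 and 20.9 CPM of it and neutrophils 9.07 and 2.95 CPM. Ifi47 was the most even IRG, 2.30 and 1.94 times apart between its highest and lowest compared class.

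H2-K1 and H2-D1, the heavy chains that present to CD8 T cells, and B2m, their light chain, were found in every class. H2-K1 stood at 4895 CPM (4784 to 5008) and 5130.3 CPM (5034 to 5228) in Treg. In the order of the PBS library NK cells followed at 3402 and 4002 CPM, then CD8 T cells at 2736 and 3608 CPM, nonclassical monocytes at 2557 and 3242 CPM, macrophages at 2238 and 3349.8 CPM, cDC2 at 1697 and 2049 CPM and classical monocytes at 1511 and 2164 CPM. In the UDSP-Hep library macrophages stood above nonclassical monocytes and cDC2 lowest. Among the compared classes H2-D1 was ordered otherwise, highest in nonclassical monocytes (2704 and 2872 CPM) and lowest in CD8 T cells (1507 and 1692 CPM). UMIs of H2-K1 over those of H2-D1 were 2.06 (1.98 to 2.15) and 2.13 (2.06 to 2.20) in Treg and 1.82 (1.77 to 1.86) and 2.13 (2.06 to 2.20) in CD8 T cells, against 0.884 (0.869 to 0.899) and 1.05 (1.03 to 1.07) in classical monocytes. B2m ranged from 2613 and 2945 CPM in cDC2 to 4951 and 5750.1 CPM in nonclassical monocytes and 4872 and 5859.7 CPM in macrophages. Basophils had the lowest levels of H2-K1 (916 and 1023 CPM) and B2m (1196 and 1489 CPM) of the classes with at least 25 cells.

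The class Ib genes H2-Q6 and H2-Q7, which encode nonclassical Qa molecules, were higher in lymphocytes than in monocytes and macrophages. Summed, because they are near-identical, they stood at 1487 and 1418 CPM in Treg, 1362 and 1444 CPM in NK cells and 1113 and 1459.7 CPM in CD8 T cells. Classical monocytes had 121 and 188 CPM and macrophages 278 and 379 CPM. Mature dendritic cells (1312 and 1390.3 CPM) and pDC (1129.6 and 1024 CPM) stood with the lymphocytes, and cDC2 (233 and 216 CPM) with the monocytes. Relative to H2-K1 the quotient was 0.400 (0.383 to 0.418) and 0.361 (0.352 to 0.369) in NK cells and 0.0803 (0.0767 to 0.0840) and 0.0870 (0.0829 to 0.0913) in classical monocytes. H2-T23, which encodes the chain read by NKG2A receptors, was more even, from 382 and 439 CPM in NK cells to 595 and 654 CPM in cDC2 and 604 and 652 CPM in Treg, with 1199 and 1096 CPM in pDC. H2-M3, which presents formylated peptides, lay between 46.9 and 98.5 CPM in the 7 compared classes.

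Psmb8 and Psme2 were highest in dendritic cells. Psmb8, a catalytic subunit of the immunoproteasome, stood at 711 CPM (680.1 to 743) and 613 CPM (577 to 650.2) in cDC2 and at 286 CPM (263 to 309.8) and 274 CPM (261 to 287) in NK cells, the lowest of the compared classes. Mature dendritic cells had 1088 and 1094 CPM of it. Psme2, a subunit of the interferon-induced proteasome activator, reached 1318 and 1297 CPM in mature dendritic cells, against 558 and 556 CPM in Treg, the highest compared class. Psmb9 stood at 959.7 CPM in the 84 cDC1 cells of the PBS library and between 201 and 434 CPM in the compared classes. Tap1, a subunit of the peptide pump, was highest in Treg among compared classes, at 442 CPM (409 to 477) and 417 CPM (390.3 to 446), and lowest in NK cells, at 164 CPM (147 to 183) and 173 CPM (163 to 183). The cDC1 cells of the PBS library had 536 CPM. Tapbp, which encodes tapasin, varied by 1.68 and 1.61 times between the highest and lowest compared class.

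Nlrc5, the transactivator of class I promoters, was highest, of the compared classes, in CD8 T cells, at 124 CPM (116 to 133) and 146 CPM (133 to 160.5), and lowest in macrophages, at 43.0 CPM (39.1 to 47.2) and 48.7 CPM (43.4 to 54.6). Treg had 121 and 119.8 CPM of it. Mature dendritic cells had 135 and 222 CPM. Calr, which encodes the chaperone calreticulin, was highest, of the compared classes, in macrophages, at 1208 and 1123 CPM, and stood at 396 and 509 CPM in nonclassical monocytes. Pdia3, whose product works beside calreticulin, stood at 148 and 201 CPM in macrophages and 144 and 209 CPM in cDC2. Of the compared classes it was lowest in nonclassical monocytes in the PBS library (65.1 and 124 CPM) and in CD8 T cells in the UDSP-Hep library (109 and 113 CPM).

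**Figure D3:**
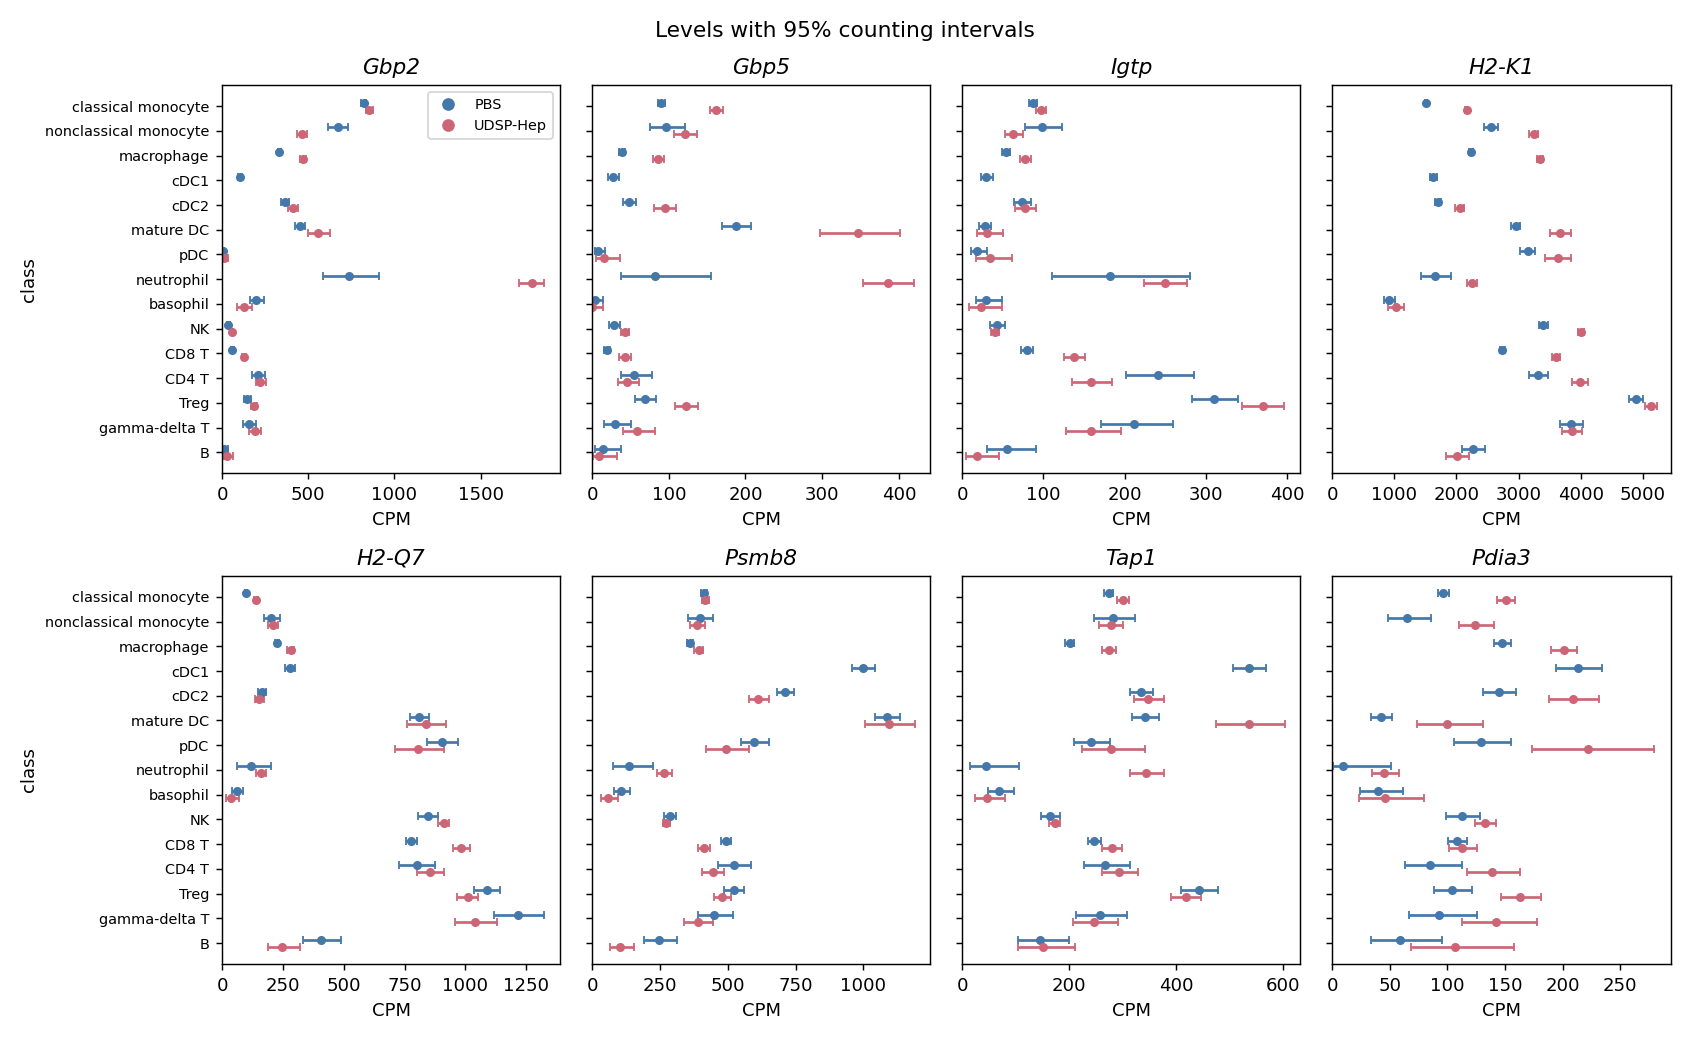
Levels of 8 genes in CPM by class and library with exact Poisson 95% intervals. Gbp2 is high in neutrophils and classical monocytes, Igtp and H2-K1 in Treg, H2-Q7 in lymphocytes, mature dendritic cells and pDC, and Psmb8 in dendritic cells.

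The second question was how the 38 genes differed between the UDSP-Hep and PBS libraries inside a class. More of them counted as higher in the UDSP-Hep library in macrophages and CD8 T cells, 12 in each, than in the other compared classes. In macrophages these were 7 GTPases and 5 class I genes, and in CD8 T cells 11 GTPases and 1 class I gene, H2-Q4. No immunoproteasome gene passed the 1.5-fold mark in any compared class, and neither did several other members such as H2-K1, H2-D1 and B2m. A gene was counted as higher or lower when its CPM differed by at least 1.5-fold and it had at least 50 UMIs over both libraries. The share of all genes of the class that counted the same way is given beside the first count in each class.

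In macrophages 12 of 38 genes counted as higher and 0 as lower, and 36 had a ratio above 1. Of all 9725 genes measured there, 8.53% counted as higher and 4.87% as lower. The median log2 ratio was 0.45 over the 38 genes and 0.07 over all genes. The 12 were the GBPs Gbp2b, Gbp3, Gbp5, Gbp6 and Gbp8, the IRGs Irgm2 and Tgtp2, the heavy chains H2-Q4, H2-Q6 and H2-T22, and Tap2 and Tapbpl. Gbp5, a GBP known for its part in inflammasome assembly, stood at 38.4 CPM (34.7 to 42.3) and 86.0 CPM (78.9 to 93.7), a ratio of 2.24 (1.96 to 2.56). H2-Q6 stood at 51.9 and 96.4 CPM (1.86, 1.65 to 2.09), and summed with H2-Q7 at 278 and 379 CPM (1.36, 1.29 to 1.44), under the 1.5-fold mark. Gbp6 stood at 27.3 and 49.2 CPM (1.80, 1.53 to 2.13) and Gbp3 at 57.4 and 103 CPM (1.80, 1.60 to 2.01). The ratios of these 4 single genes were the highest in the class, and for each the interval of the UDSP-Hep level lay above that of the PBS level.

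Below equality in macrophages were Psme1, at 436 and 399.8 CPM (0.916, 0.872 to 0.963), and Calr, at 1208 and 1123 CPM (0.929, 0.902 to 0.957). The next lowest ratios were those of Psme2 and Psmb10, at 1.01 (0.956 to 1.06) and 1.04 (0.976 to 1.12), both with intervals that include equality. H2-K1 had the ratio nearest to the 1.5-fold mark without counting, at 2238 CPM (2209 to 2267) and 3349.8 CPM (3304 to 3396), a ratio of 1.497 (1.47 to 1.53), and Tapbpl lay just past it at 1.51 (1.27 to 1.79). The ratios of H2-K1, H2-D1, B2m, Tap1, Psmb9, Nlrc5, Gbp2 and Irgm1 were 1.497, 1.38, 1.20, 1.36, 1.09, 1.13, 1.40 and 1.33. Beside these values, summed classical monocyte markers in the macrophages were 3617 and 1914 CPM and macrophage markers 9318 and 9493 CPM, and the part of monocyte markers in the ratios was not tested. With every cell thinned to 1000 UMIs 6 genes counted as higher, of 30 that then had enough UMIs. Gbp8 then lay below equality (log2 ratio -0.11), in a single random draw and with no UMI minimum applied after thinning.

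In CD8 T cells 12 of 37 measured genes counted as higher and 0 as lower, and all 7 IRGs were among them. However, Igtp (log2 ratio -0.042) and Tgtp1 (-0.068) lay below equality when cells were thinned to 1000 UMIs. Thinned ratios come from a single random draw and had no UMI minimum applied after thinning, and Tgtp1 then held few UMIs. Of 9284 genes measured in the class 13.1% counted as higher and 10.4% as lower, so calls in both directions were more common there than in the other classes. The median log2 ratio was 0.36 over the measured members, 1.19 over the IRGs alone and 0.05 over all genes. Iigp1 stood at 10.2 CPM (7.78 to 13.01) and 28.3 CPM (22.7 to 34.8), a ratio of 2.78 (1.99 to 3.92). Tgtp1 (2.68, 1.63 to 4.44), Tgtp2 (2.51, 1.87 to 3.37) and Irgm2 (2.28, 1.80 to 2.90) followed. Tgtp1 and Tgtp2 are near-identical, and summed they stood at 19.0 and 48.5 CPM (2.55, 1.99 to 3.28).

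Of the GBPs in CD8 T cells, Gbp5 stood at 19.3 CPM (16.0 to 23.1) and 42.4 CPM (35.5 to 50.3), a ratio of 2.19 (1.70 to 2.84). Gbp2 stood at 60.4 CPM (54.4 to 66.9) and 126 CPM (113 to 139), a ratio of 2.08 (1.80 to 2.40). Gbp4 (1.53) and Gbp8 (1.59) also counted, and H2-Q4 (1.62, 1.49 to 1.76) was the class I gene among the 12. The lowest ratios were those of Calr (0.804, 0.755 to 0.856), Psmb9 (0.814, 0.754 to 0.878), Psmb8 (0.836, 0.783 to 0.893) and Psme2 (0.905, 0.836 to 0.980). These intervals exclude equality, so Psmb8 and Psmb9 stood below it in the class in which Iigp1, Gbp2 and Gbp5 stood above it. The ratios of H2-K1, H2-D1, B2m, Tap1, Psmb9, Nlrc5, Gbp2 and Irgm1 were 1.32, 1.12, 1.27, 1.13, 0.814, 1.18, 2.08 and 1.58.

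The CD8 T cells of the libraries differed in cycling. Cells with at least 3 of 7 cell-cycle genes were 28.6% of CD8 T cells with PBS (158 of 552) and 5.18% with UDSP-Hep (24 of 463). Without these cells, an alternative chosen after seeing the data, 6 of 37 genes counted as higher in place of 12, beside 8.95% of all genes. They included Gbp2 (1.58, 1.35 to 1.86), Gbp5 (1.81, 1.34 to 2.45) and Iigp1 (2.01, 1.37 to 2.99). The others were Irgm2 (1.58, 1.21 to 2.06), Tgtp1 (1.59, 0.963 to 2.65) and Tgtp2 (1.78, 1.28 to 2.48). Igtp, at 79.7 and 138 CPM with all cells (1.73, 1.52 to 1.98), had a ratio of 1.19 (1.03 to 1.38) without cycling cells. Irgm1 then had 1.19 (0.997 to 1.43) in place of 1.58 (1.35 to 1.86). Psmb8 and Psmb9 stayed below equality, at 0.802 (0.740 to 0.868) and 0.843 (0.765 to 0.928). With cells placed by their best matching class profile 5 of 36 genes counted as higher, beside 8.55% of all genes. With cells thinned to 1000 UMIs 2 of 29 with enough UMIs did. The share of all genes was then 12.3%, above that of the members. Phagocyte markers summed to 382 and 391 CPM in the CD8 T class, and neutrophil markers to 26.8 and 64.5 CPM. The part of neutrophil RNA in these ratios was not tested.

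**Figure D4:**
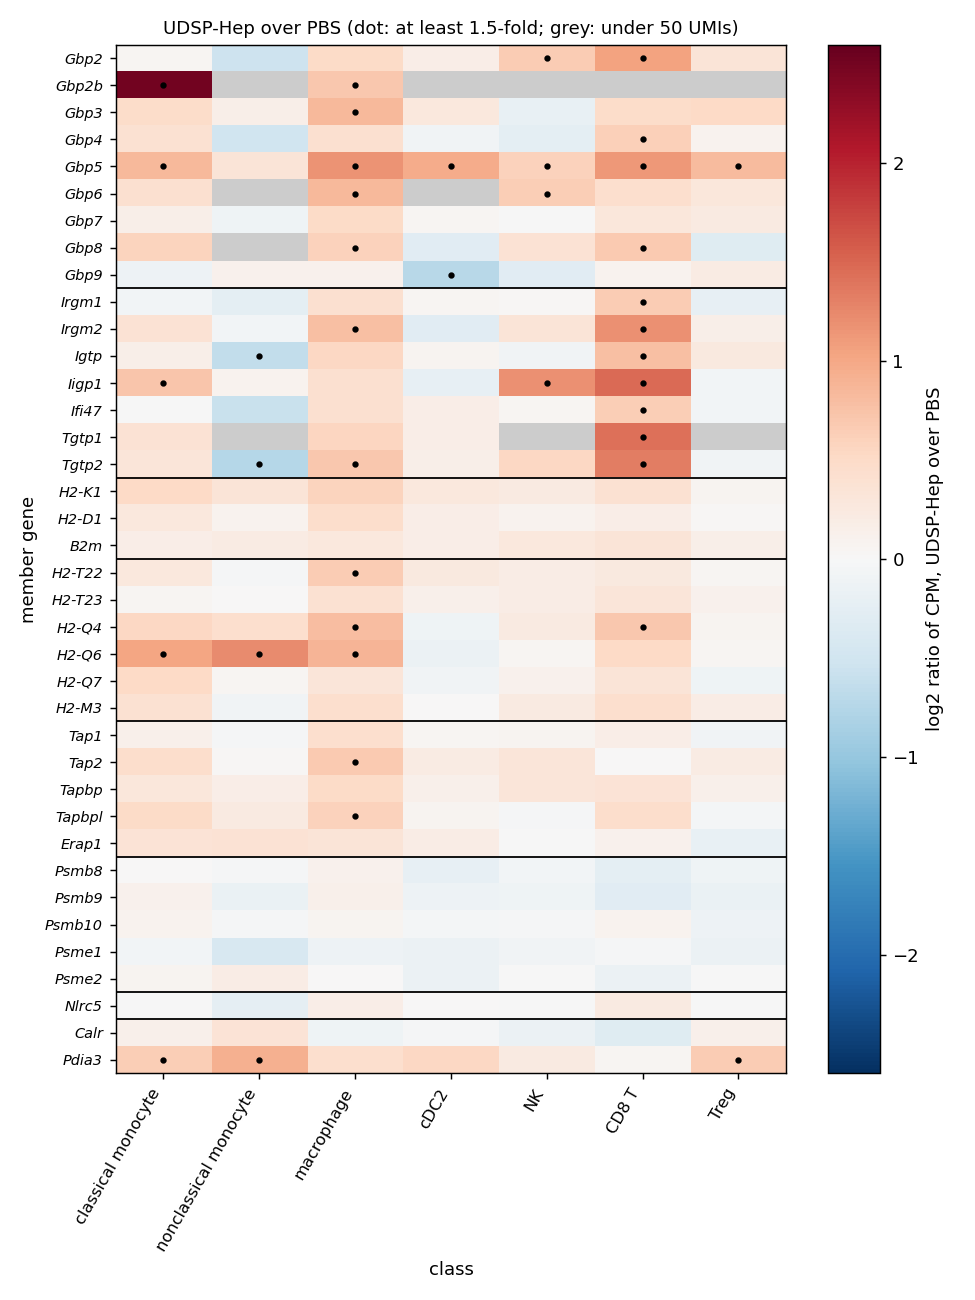
Ratio of CPM, UDSP-Hep over PBS, on a log2 colour scale for the 38 genes in the 7 compared classes. Dots mark genes past 1.5-fold in either direction, and grey cells genes with under 50 UMIs. Dots gather in the macrophage and CD8 T columns (12 each), and Gbp5 has 6. The immunoproteasome rows have 0, like those of H2-K1, H2-D1, B2m and other members.

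In classical monocytes 5 of 38 genes counted as higher and 0 as lower, beside 7.88% and 3.51% of 9938 genes. The median log2 ratio was 0.30 over the members and 0.13 over all genes, the widest shift of all genes in any compared class. Gbp2b stood at 2.01 CPM (1.38 to 2.82) and 11.46 CPM (9.42 to 13.8), a ratio of 5.70 (3.83 to 8.69) on few UMIs. H2-Q6 stood at 24.1 and 48.9 CPM (2.03, 1.77 to 2.32), and summed with H2-Q7 at 121 and 188 CPM (1.55, 1.46 to 1.65). Gbp5 (90.2 and 162 CPM, ratio 1.79, 1.67 to 1.93), Iigp1 (41.7 and 69.0 CPM, ratio 1.65, 1.48 to 1.84) and Pdia3 (96.3 and 151 CPM, ratio 1.57, 1.46 to 1.68) were the others. Gbp2 was nearly level at 1.04 (1.01 to 1.07). The lowest ratios were those of Gbp9 (0.911, 0.811 to 1.02), Irgm1 (0.9501, 0.898 to 1.00), Psme1 (0.954, 0.920 to 0.990) and Nlrc5 (0.987, 0.894 to 1.09). The ratios of the 8 genes named for every class were, in the order used above, 1.43, 1.20, 1.13, 1.10, 1.07, 0.987, 1.04 and 0.9501.

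NK cells had 4 of 36 measured genes higher and 0 lower, beside 6.40% and 3.28% of 9058 genes. The 4 were GTPases at low levels: Iigp1 at 6.23 and 14.3 CPM (2.29, 1.28 to 4.46), Gbp2 at 35.0 and 55.4 CPM (1.58, 1.23 to 2.06), Gbp6 at 17.2 and 26.7 CPM (1.55, 1.08 to 2.28) and Gbp5 at 28.3 and 42.6 CPM (1.51, 1.14 to 2.03). Gbp4 stood lower at 143 and 120.0 CPM (0.838, 0.732 to 0.960), so the GBPs of NK cells stood on both sides of equality. Gbp9 (0.820, 0.598 to 1.14), Gbp3 (0.874, 0.686 to 1.12) and Calr (0.902, 0.843 to 0.967) had the other lowest ratios. Summed phagocyte markers in NK cells were 291 and 405 CPM and neutrophil markers 12.5 and 69.8 CPM, and their part in the Gbp2 ratio was not tested. H2-K1 had the ratio 1.18 (1.15 to 1.21) and B2m 1.22 (1.18 to 1.25), small differences with intervals that exclude equality. The other ratios of the 8 genes were 1.07 for H2-D1, 1.05 for Tap1, 0.929 for Psmb9, 0.998 for Nlrc5 and 1.02 for Irgm1.

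Treg, which held the highest level of more members than any other compared class, showed small differences. There 2 of 36 measured genes counted as higher and 0 as lower, beside 6.28% and 4.84% of 7435 genes. Gbp5 stood at 69.1 CPM (56.5 to 83.7) and 122 CPM (108 to 138), a ratio of 1.77 (1.40 to 2.24). Pdia3 stood at 104 CPM (88.0 to 121) and 163 CPM (146 to 181), a ratio of 1.57 (1.30 to 1.91). Gbp3 (1.43, 1.16 to 1.77) and Gbp2 (1.26, 1.07 to 1.496) came next. Gbp8 (0.799, 0.556 to 1.15), Irgm1 (0.858, 0.695 to 1.06), Erap1 (0.879, 0.674 to 1.15) and Psmb9 (0.883, 0.796 to 0.981) were lowest, and of these the interval of Psmb9 excludes equality. IRGs summed to 1028 and 1062 CPM, a ratio of 1.03 (0.967 to 1.10), against 1.74 (1.63 to 1.85) in CD8 T cells. In the order used above the 8 ratios were 1.05, 1.02, 1.11, 0.944, 0.883, 0.991, 1.26 and 0.858.

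In cDC2, conventional dendritic cells that mainly prime CD4 T cells, 1 of 36 measured genes counted as higher and 1 as lower, beside 5.59% and 4.51% of 7248 genes. Gbp5 stood at 48.3 CPM (40.6 to 57.2) and 94.5 CPM (80.7 to 109.9), a ratio of 1.95 (1.55 to 2.47). Gbp9 was the lower gene, at 14.9 and 9.05 CPM (0.606, 0.318 to 1.10), with an interval that includes equality. Pdia3 (1.45, 1.25 to 1.67), H2-K1 (1.21, 1.16 to 1.26) and Gbp3 (1.20, 0.913 to 1.58) were next above, and Irgm2 (0.810, 0.578 to 1.12), Gbp8 (0.819, 0.529 to 1.25) and Psmb8 (0.862, 0.7995 to 0.928) next below. All 5 immunoproteasome genes had ratios below 1 in cDC2. The 8 ratios were 1.21, 1.12, 1.13, 1.04, 0.907, 1.00, 1.12 and 1.04.

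Nonclassical monocytes, which patrol vessel walls, had 2 of 34 measured genes higher and 2 lower, beside 10.4% and 4.0% of 6126 genes. The higher genes were H2-Q6, at 45.6 and 108 CPM (2.36, 1.65 to 3.47), and Pdia3, at 65.1 and 124 CPM (1.91, 1.41 to 2.64). Summed with H2-Q7, H2-Q6 had a ratio of 1.27 (1.08 to 1.51), under the 1.5-fold mark. Tgtp2 (24.7 and 14.8 CPM, ratio 0.596, 0.326 to 1.12) and Igtp (97.7 and 62.8 CPM, ratio 0.643, 0.481 to 0.866) were the lower genes. Ifi47 (0.674, 0.568 to 0.801) and Gbp2 (671 and 464 CPM, ratio 0.691, 0.621 to 0.771) also lay below equality, while H2-Q4 (1.36, 1.04 to 1.78) and Erap1 (1.29, 0.854 to 2.01) lay above. GTPases summed to 1754 and 1402 CPM (0.799, 0.749 to 0.853) and class Ia genes with B2m to 10212 and 11864 CPM (1.16, 1.13 to 1.19). The PBS value rests on 108 cells. With cells placed by their best matching profile (330 and 792 cells) 10 of 36 genes counted as higher and 0 as lower. The shares of all genes were then 8.20% and 2.10%, and Igtp lay above equality (log2 ratio 0.31). Without cells holding Hspa1a or Hspa1b UMIs 8 of 32 counted as lower, beside 5.91% of all genes. Macrophage markers in the gated cells were 1799 and 2718 CPM, and their part was not tested. The 8 ratios were 1.27, 1.06, 1.16, 0.982, 0.886, 0.848, 0.691 and 0.837.

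Read by gene, Gbp5 counted as higher in 6 of the 7 classes, more than any other member. Nonclassical monocytes were the exception, at 96.4 and 121 CPM (1.26, 0.969 to 1.65). Pdia3, H2-Q6 and Iigp1 each counted in 3 classes. Summed with the near-identical H2-Q7, H2-Q6 passed the mark in classical monocytes but not in macrophages or nonclassical monocytes. H2-K1 had a ratio above 1 in all 7 classes, from 1.05 (1.02 to 1.08) in Treg to 1.497 (1.47 to 1.53) in macrophages, but it lay below equality in Treg (log2 ratio -0.087) when cells with a UMI of Hspa1a or Hspa1b were left out, an alternative chosen after seeing the data. UMIs of H2-K1 per UMI of H2-D1 were higher in the UDSP-Hep library in all 7, for example 0.884 and 1.05 in classical monocytes. The intervals of the libraries overlapped in Treg, at 2.06 (1.98 to 2.15) and 2.13 (2.06 to 2.20). They also overlapped in cDC2, at 1.06 (1.02 to 1.11) and 1.15 (1.09 to 1.20). B2m also had a ratio above 1 in all 7 classes, from 1.11 in Treg to 1.27 in CD8 T cells.

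Immunoproteasome genes formed the other pole. Of 5 genes in 7 classes none counted in either direction. Their sum had ratios of 1.02 (0.999 to 1.04) in classical monocytes, 1.02 (0.993 to 1.04) in macrophages, 0.955 (0.914 to 0.998) in NK cells, 0.926 (0.885 to 0.969) in Treg, 0.923 (0.863 to 0.987) in nonclassical monocytes, 0.900 (0.870 to 0.930) in CD8 T cells and 0.897 (0.862 to 0.933) in cDC2. Psme1 had a ratio under 1 in all 7 classes, from 0.751 to 0.975, and turned above it in both monocyte classes and macrophages when cells were thinned to 1000 UMIs. The constitutive catalytic subunits Psmb5, Psmb6 and Psmb7, which the immunoproteasome subunits replace, summed to 528 and 419.5 CPM in macrophages and 410.3 and 277 CPM in CD8 T cells. UMIs of Psmb8, Psmb9 and Psmb10 over those of these 3 genes were higher in the UDSP-Hep library, at 1.55 (1.499 to 1.61) and 2.10 (2.01 to 2.20) in macrophages and 2.53 (2.41 to 2.65) and 3.24 (3.001 to 3.50) in CD8 T cells. In Treg the quotient was lower in the UDSP-Hep library, at 3.44 (3.11 to 3.81) and 3.01 (2.76 to 3.28), but these intervals overlap. The quotient was not read without cycling cells, whose share differed between the libraries in CD8 T cells.

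The chaperones differed from each other. Pdia3 had a ratio above 1 in all 7 classes, from 1.04 in CD8 T cells to 1.91 in nonclassical monocytes, whereas Calr was above 1 in 3. Of 5 further genes of folding in the endoplasmic reticulum (Canx, Hspa5, Hsp90b1, Pdia4 and Pdia6), 0 counted as higher in 6 of the classes. In nonclassical monocytes 1, Hsp90b1, counted as higher, beside 10.4% of all genes. In macrophages 1, Pdia4, counted as lower (406 and 249 CPM), beside 4.87% of all genes.

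Further genes of the interferon-gamma pathway were read from related lists. Of 11 genes of the signal chain and its regulators, 4 of 10 measured counted as higher in Treg (Ifng, Irf1, Irf8 and Socs1), 1 of 10 in cDC2 (Irf8), 0 of 9 in NK cells and 0 of 10 in nonclassical monocytes, where Ciita counted as lower. The shares of all genes that counted as higher were 6.28% in Treg, 5.59% in cDC2 and 6.40% in NK cells, and 4.0% counted as lower in nonclassical monocytes. Counts of this list in the other classes are not reported here. Ifng, the gene of the cytokine itself, stood at 274 CPM (261 to 287) and 264 CPM (246 to 283) in CD8 T cells and at 158 CPM (141 to 176) and 110.1 CPM (102 to 118) in NK cells, so neither had more of it in CPM in the UDSP-Hep library. In Treg it stood at 21.3 CPM (14.5 to 30.0) and 75.6 CPM (64.3 to 88.3), a ratio of 3.56 (2.42 to 5.38). Irf1, an early transcription factor of the response, stood at 128 and 250.4 CPM (1.95, 1.77 to 2.16) in CD8 T cells and 266 and 466 CPM (1.75, 1.56 to 1.97) in Treg. The receptor gene Ifngr1 stood at 416 and 857 CPM (2.06, 1.95 to 2.17) in CD8 T cells and 134 and 246 CPM (1.83, 1.70 to 1.97) in macrophages.

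Of 8 other genes induced by interferon gamma, 2 of 6 measured counted as higher and 2 as lower in CD8 T cells, 3 of 6 as higher and 1 as lower in Treg, 2 of 7 as higher in cDC2, and 1 as higher in macrophages, classical monocytes and NK cells. In nonclassical monocytes 1 of 7, Cxcl10, counted as lower. In CD8 T cells 13.1% of all genes counted as higher and 10.4% as lower, and in Treg 6.28% and 4.84%. Cd274, which encodes PD-L1, stood at 265 and 453 CPM (1.71, 1.62 to 1.80) in macrophages, and the chemokine gene Cxcl9 at 268 and 489.9 CPM (1.83, 1.75 to 1.90) in classical monocytes. Of 7 further GTPase genes of the same families, 4 could be measured in macrophages, where 1 (Gm5431) counted as higher, and 3 in classical monocytes, where 1 (Gm4951) did, beside 8.53% and 7.88% of all genes. Gbp10, a close relative of Gbp6, stood at no more than 11.3 CPM in any class.

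Levels in classes with under 100 cells in a library are given side by side, without a count. Neutrophils, 41 cells with PBS and 549 with UDSP-Hep, had GTPases summed at 2014 and 4366 CPM, the highest of any class in the UDSP-Hep library. Gbp2 in neutrophils stood at 735 CPM (584 to 913) and 1796 CPM (1726 to 1869), Gbp5 at 81.7 CPM (37.3 to 155) and 386 CPM (353 to 420.0), and Tap1 at 45.4 CPM (14.7 to 106) and 344 CPM (314 to 377). Summed neutrophil markers in the class were 92139 and 52911 CPM and classical monocyte markers 2831 and 1511 CPM. In mature dendritic cells (162 and 42 cells) Gbp5 stood at 188 CPM (169.8 to 207) and 347 CPM (298 to 401) and Tap1 at 342 CPM (317 to 368) and 535 CPM (474 to 603). Pdia3 was 42.0 CPM (33.7 to 51.7) and 99.3 CPM (73.9 to 131) there. In pDC (82 and 31 cells) the IRGs summed to 326 and 543 CPM, with Iigp1 at 90.3 CPM (71.3 to 113) and 197 CPM (151 to 252). CD4 T cells outside the Treg gate (96 and 198 cells) had lower sums in the UDSP-Hep library, with IRGs at 1030.1 and 815 CPM and GBPs at 1051 and 891 CPM. Gamma-delta T cells (80 and 85 cells) had GTPases at 1650.2 and 1664 CPM, and basophils (106 and 53 cells) at 416 and 322 CPM. B cells (48 and 63 cells) had 362 and 301 CPM.

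Within classes, GTPases were compared cell by cell. In classical monocytes the summed GTPases ran from 180.2 and 193 CPM of a cell at the 10th percentile through 1219 and 1381 at the median to 5476 and 5892 at the 90th. The 22 class I genes ran from 7429 and 8944 to 16644 and 19361. Neutrophils varied widely, at median depths of 2275 and 2400 UMIs. Of them 34.1 and 20.8% had 0 GTPase UMIs, while the 90th percentile reached 9548 and 13259 CPM of a cell. Larger shares had 0 GTPase UMIs in basophils (62.3 and 47.2%) and B cells (58.3 and 38.1%). In macrophages the median cell moved from 576 to 1102 between the libraries and the 90th percentile from 2995 to 4236. In nonclassical monocytes the median was 448 and 543 and the 90th percentile 5019 and 3587, so the median cell was higher and the 90th percentile lower in the UDSP-Hep library. For NK cells the medians were 698 and 649. Shares of cells at 0 depend on depth, which differed between classes.

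**Figure D5:**
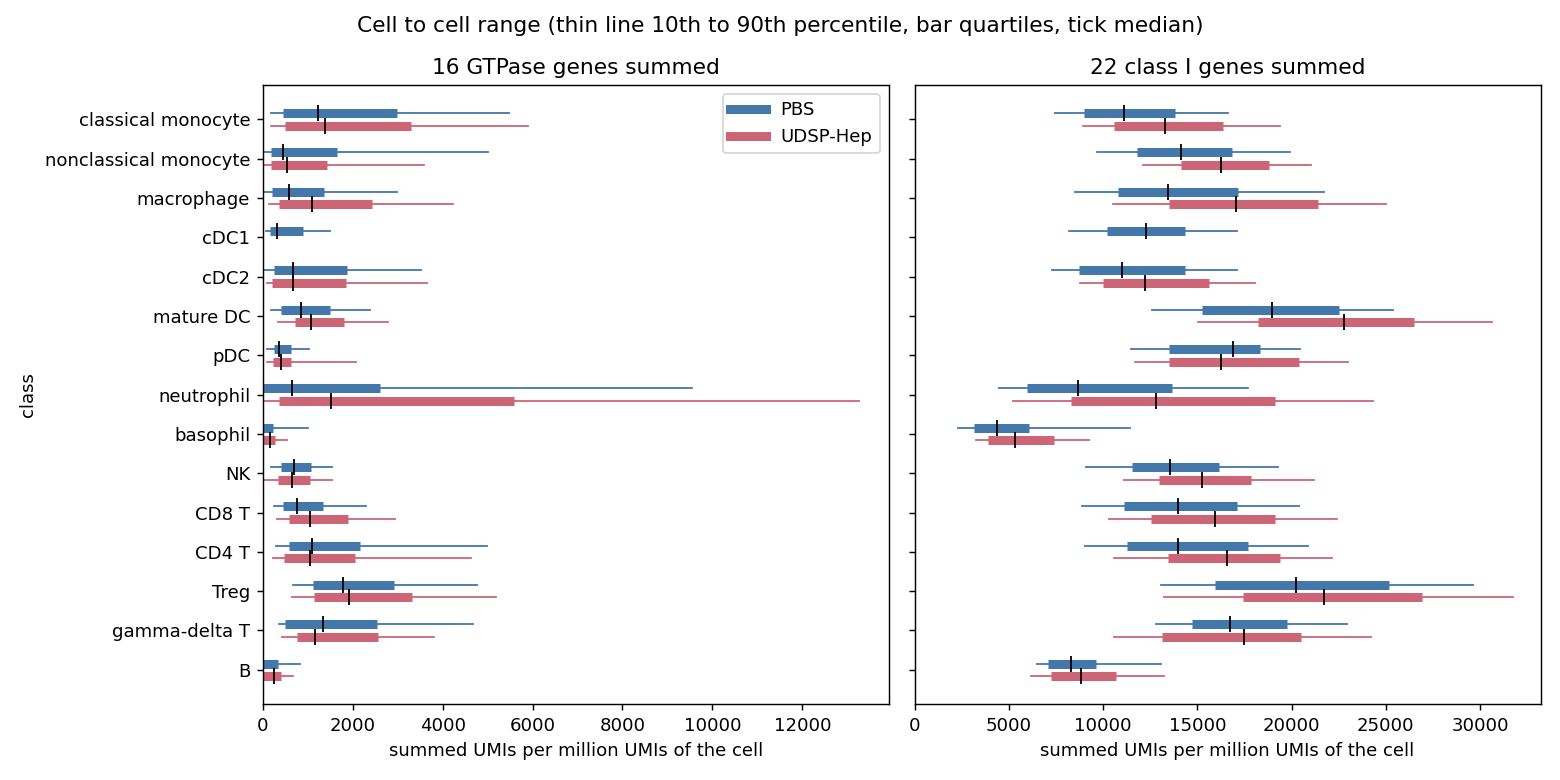
Summed GTPase genes (left) and class I genes (right) as CPM of each cell, by class and library. Thin lines span the 10th to the 90th percentile of cells, bars the quartiles and ticks the median. GTPase lines are longest in neutrophils and classical monocytes.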

How the data were processed

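Leukocytes of 2 groups of mice, PBS and UDSP-Hep, were measured by droplet single-cell RNA sequencing, with 1 library per group from 3 pooled tumours. The deposited values are whole-number UMI counts per gene and barcode. Per the file headers they were made with Cell Ranger 7.0.0, and per the submitters' processing notes with mm10 and Seurat, named without a role. Barcodes were kept if 200 genes and 500 UMIs or more were counted and mitochondrial UMIs stayed under 10% (245 and 197 were removed). Libraries totalled 74685827 and 64241224 UMIs.

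Cells were placed in classes by how many markers of a list had a UMI. The lists hold no member, and the thresholds were set after seeing the data. Cells with markers of 2 lineages were left out, and no doublet caller was run. Cells that passed no lineage gate (711 and 851) or no subclass gate (711 and 572) were not used. Counts were summed per class and library and divided by all UMIs of the class. With 1 library per group no test was possible, and intervals (95%) cover counting error only. A count of 0 allows up to 3 UMIs. The members and lists were chosen with earlier results of these data known. Within a class the 4 highest and 4 lowest ratios with at least 50 UMIs were named, with 8 genes named in every class, and related genes by their counts and examples. Some levels were described after their values were seen.

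Promoter sequences came from RefSeq and annotation from GENCODE M21. The code was tested on simulated data. Python 3.11.15, numpy 2.4.6, scipy 1.17.1, pandas 2.3.3 and matplotlib 3.10.9 were used. Alternatives changed the gate, scaling, depth, UMI minimum, fold and doublet rule, and 2 left out cycling or heat-shock cells. Results that need 1 gene of the related lists are not reported here.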

Additional observations from a re-analysis of the deposited data

Results flagged for a closer look

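Igtp stood on opposite sides of equality in 2 classes. Its ratio of UDSP-Hep over PBS was 1.73 in CD8 T cells and 0.643 in nonclassical monocytes. In CD8 T cells the log2 ratio was -0.042 with every cell thinned to 1000 UMIs, and the ratio was 1.19 without cycling cells. In nonclassical monocytes the log2 ratio was 0.31 with each cell given to its best matching profile. The difference between the classes was not tested, since each class has 1 library per group.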

How the results depend on the processing

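No paired analysis was possible because each group is 1 library. A percentage in brackets is the share of all genes that counted the same way. Macrophages and classical monocytes kept counts of higher genes within 1.5 times of the reported 12 and 5 under the alternatives, except at a fold of 2 and, for macrophages, after thinning. A similar count did not always mean the same genes. After thinning, 3 of the 5 genes counted as higher in classical monocytes (9.02%) were among those reported, and 4 of the 6 in macrophages. At a fold of 2 the higher counts were 2 of 38 in classical monocytes (1.44%) and 1 of 38 in macrophages (2.09%). They were 1 of 34 in nonclassical monocytes (2.33%), 0 of 36 in cDC2 (1.13%) and 1 of 36 in NK cells (1.85%). CD8 T cells had 6 of 37 (4.01%) and Treg 0 of 36 (1.12%). Lower counts were 0 in cDC2 (1.03%) and 0 in nonclassical monocytes (0.751%). With every cell thinned to 1000 UMIs the higher counts were 6 in macrophages, 2 in CD8 T cells, 2 in NK cells (1 lower), 4 in Treg, 0 in cDC2 (0 lower) and 1 in nonclassical monocytes (1 lower), and fewer genes then had enough UMIs. Thinning turned the log2 ratios of Gbp8 in macrophages (-0.11), Igtp in CD8 T cells (-0.042) and Tgtp1 in CD8 T cells (-0.068). These ratios come from a single random draw and had no UMI minimum applied after thinning, and Tgtp1 then held few UMIs.

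With each cell given to its best matching profile the higher counts were 5 of 36 in CD8 T cells (8.55%) and 2 of 36 in NK cells (6.41%). In cDC2 4 of 38 were higher (4.95%) and 0 lower (3.57%). Nonclassical monocytes had 10 of 36 higher (8.20%) and 0 lower (2.10%), and there Igtp (0.31) and Tgtp2 (0.70) turned above equality on the log2 scale. With every cell weighed the same the higher counts were 7 of 37 in CD8 T cells (10.3%) and 1 of 36 in NK cells (7.16%). In cDC2 2 of 36 were then higher (6.72%), and in nonclassical monocytes 1 of 34 was lower (4.36%). A stricter gate gave 4 of 32 higher in nonclassical monocytes (14.1%) and 2 of 36 in cDC2 (5.63%). Keeping cells of a second lineage gave 4 of 36 higher (10.5%) and 1 lower (4.22%) in nonclassical monocytes. It gave 1 of 37 higher in Treg (6.04%). Leaving out the highest UMI totals gave 2 of 35 higher (6.54%) and 3 lower (4.53%) in cDC2. A minimum of 20 UMIs gave 2 of 37 higher in cDC2 (8.02%). Under a minimum of 200 UMIs 0 were lower in cDC2 (1.31%) and 1 in nonclassical monocytes (2.39%). The same lower counts held when the interval had to exclude equality, where no share of all genes was read. Median-of-ratios scaling, which lowers the median of all genes in classical monocytes by 0.13 on the log2 scale, gave 2 of 36 higher in NK cells (5.42%). It gave 5 of 34 lower (5.68%) and 2 higher (7.90%) in nonclassical monocytes.

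Of the alternatives chosen after seeing the data, leaving out cycling cells gave 6 of 37 higher in CD8 T cells (8.95%). Leaving out cells with Hspa1a or Hspa1b UMIs gave 2 of 36 higher in NK cells (7.98%). It gave 4 of 35 higher (7.63%) and 0 lower (4.74%) in cDC2, and 8 of 32 lower in nonclassical monocytes (5.91%). The median log2 ratio of the members in nonclassical monocytes was -0.051 under median-of-ratios scaling, -0.0028 under the reduced denominator, -0.0034 without the highest UMI totals and -0.063 without heat-shock cells, and that of Treg was -0.022 without heat-shock cells. The causes were not tested. Summing H2-Q6 with H2-Q7 put 7 of 14 ratios outside the interval of the single gene, and summing Tgtp1 with Tgtp2 put 0 of 11. Genes with few UMIs, such as Gbp2b and Gbp9, and classes with near 100 cells are limited by counting error.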
